A study of Mus musculus with 48 samples.

Results

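The 8 genes described here encode subunits of Polycomb repressive complex 2 (PRC2): Ezh1 and Ezh2, Eed, Suz12, Jarid2, Aebp2, Mtf2 and Phf19. They were taken by gene symbol, whatever their values, and are 8 of the 54752 genes listed in each of 3 count tables. Nascent RNA, labelled with a pulse of the uridine analogue 4-thiouridine (30 min in cycling and 15 min in synchronized cells), had been sequenced from mouse embryonic stem cells (ESCs), and the 48 libraries form 24 groups of 2. All cells grew in L2i medium. Cycling FOXD3-iKO cells, an inducible knockout line, received 4-hydroxytamoxifen (4HT) or its solvent ethanol for 8, 14, 24 or 32 h. Cycling OCT4-tetOff cells received doxycycline (DOX) or water for 16 or 24 h. FOXD3-iKO cells treated with 4HT or ethanol were also held in a double thymidine block, released 24 h after treatment and collected at 0, 1, 2, 3, 4 and 5 h. In the sources used here, neither the removed part of Foxd3 and its Cre driver nor the number of clones is given. They also do not say whether replicates were separate cultures, so p-values measure only the spread between these libraries, which may be technical. The comparisons ask how transcription responds to loss of FOXD3, a forkhead factor of pluripotent cells, and to loss of OCT4, the POU factor encoded by Pou5f1.

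PRC2 methylates lysine 27 of histone H3, a mark of silenced developmental genes. Ezh1 and Ezh2 are the alternative catalytic subunits, Suz12 is the scaffold, and Eed binds the methylated product and stimulates the enzyme. Jarid2 and Aebp2 accompany one form of the complex, and the Polycomb-like proteins Mtf2 and Phf19 the other, where they help it to CpG-rich DNA. Embryonic stem cells can survive without PRC2 but do not differentiate properly.

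Total counts per library lay between 21827951 and 30406124 (16 cycling FOXD3-iKO libraries), 21113158 and 26112435 (8 OCT4-tetOff libraries) and 7953841 and 17936504 (24 synchronized libraries). At each time, and over all synchronized libraries, Foxd3 was lower with 4HT in all libraries, for example 1.94 ± 0.72 against 5.97 ± 1.29 CPM at 32 h (CPM are counts scaled to library size with TMM factors; mean ± SD, n = 2). Pou5f1 went from 187 ± 14.7 to 52.6 ± 8.98 CPM after 24 h of doxycycline, and Foxd3 itself from 20.7 ± 0.715 to 2.37 ± 0.683 CPM. The summed level of 8 pluripotent stem cell markers was 2189.5 to 3593 CPM outside the DOX groups and 957 to 1454 CPM in them, with Sox2 listed at 0 in all 48 libraries. The summed level of 6 fibroblast markers was at most 7.05 CPM, and that of 4 neural markers 5.04 to 20.6 CPM with Sox1 listed at 0. Gm26917 and Gm42418, gene models that collect ribosomal RNA reads, took 3.41 to 43% of counts. In bulk RNA, fewer cells of a type and less RNA per cell cannot be told apart.

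Promoter sequences are shown for 4 members, chosen to show the opposite directions described below: Eed and Suz12 (lower after OCT4 loss), Ezh1 (higher after OCT4 loss) and Aebp2 (higher after FOXD3 loss). Each is the 250 bases before a RefSeq start site, 5′ to 3′ on the gene's strand, in build GRCm38.p6. The windows are Eed (chr7:89980977-89981226, minus strand), Suz12 (chr11:79992856-79993105, plus strand), Ezh1 (chr11:101226464-101226713, minus strand) and Aebp2 (chr6:140622413-140622662 and chr6:140624659-140624908, plus strand). Capitals mark matches, on either strand, to the octamer ATGCAAAT (bound by OCT4), the forkhead word TGTTTAC, the CCAAT box (CCAAT) or the E2F words TTTCCCGC and TTTGGCGC. No 2 of these words overlap in the windows shown.
Eed: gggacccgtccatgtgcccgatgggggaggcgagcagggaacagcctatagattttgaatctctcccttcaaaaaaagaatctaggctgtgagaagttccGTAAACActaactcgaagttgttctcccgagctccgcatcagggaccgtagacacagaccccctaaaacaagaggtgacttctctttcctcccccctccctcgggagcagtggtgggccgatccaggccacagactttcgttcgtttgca
Suz12: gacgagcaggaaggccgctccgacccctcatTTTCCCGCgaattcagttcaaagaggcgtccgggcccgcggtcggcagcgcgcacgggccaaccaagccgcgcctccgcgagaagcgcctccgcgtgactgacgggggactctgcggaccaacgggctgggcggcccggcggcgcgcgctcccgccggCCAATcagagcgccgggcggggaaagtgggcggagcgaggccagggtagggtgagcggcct
Ezh1: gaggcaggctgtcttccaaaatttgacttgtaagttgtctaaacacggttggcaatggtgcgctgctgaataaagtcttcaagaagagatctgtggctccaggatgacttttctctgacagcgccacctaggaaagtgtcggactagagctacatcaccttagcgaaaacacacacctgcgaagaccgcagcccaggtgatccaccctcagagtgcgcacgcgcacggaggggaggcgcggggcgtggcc
Aebp2, first start: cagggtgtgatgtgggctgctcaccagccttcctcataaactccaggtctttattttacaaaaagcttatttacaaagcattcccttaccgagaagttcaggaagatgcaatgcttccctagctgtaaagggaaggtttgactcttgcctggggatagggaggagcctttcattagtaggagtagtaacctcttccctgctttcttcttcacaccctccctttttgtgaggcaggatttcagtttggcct
Aebp2, second start: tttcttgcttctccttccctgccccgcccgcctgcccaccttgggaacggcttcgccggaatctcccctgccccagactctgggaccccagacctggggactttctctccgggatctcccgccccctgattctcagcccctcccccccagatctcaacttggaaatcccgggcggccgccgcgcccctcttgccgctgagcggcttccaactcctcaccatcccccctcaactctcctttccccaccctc
Matches were counted in 1 window a member, that nearest the deposited gene start, although Aebp2 has 3 windows and Mtf2 and Jarid2 have 2. The octamer was in 0 of the 8 and in 1.6% of all 32851 windows of this length. The forkhead word was in 1 member, Eed, as GTAAACA on the opposite strand, and in 3.17% of all windows. An E2F word was in 2 members, Suz12 and Phf19, and in 1.3% of all windows, and the CCAAT box was in 3 members (Ezh2, Suz12 and Jarid2) and in 33.8% of all. The second window of Mtf2 and the third of Aebp2 also held a CCAAT box. The windows nearest the deposited gene starts had a median GC content of 61.4%, against 52.4% over all windows, and a median observed to expected CpG ratio of 0.88 against 0.37. Aebp2 was unlike the rest: the window at its deposited start had 1 CpG and a ratio of 0.07, while the window of its second start had 14 CpGs and a ratio of 0.63. These matches describe letters in the windows and say nothing of binding.

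In solvent-treated cells the members lay at very different levels, compared here as CPM per kilobase (kb) of gene, since the counted interval includes introns. Mtf2 was the highest, with 12.6 to 18.4 CPM per kb over the 8 cycling ethanol libraries (median 13.3). The core subunits Eed (7.35 to 11.2, median 8.18) and Suz12 (6.17 to 12.4, median 7.16) came next and overlapped one another. Aebp2 (3.86 to 5.43), Jarid2 (2.35 to 6.5) and Ezh2 (2.6 to 4.91) formed a middle group whose ranges also overlapped. Ezh1 (0.717 to 1.17) lay below all of these, and Phf19 (0.111 to 0.201) was the lowest, with 51 to 120 counts per cycling FOXD3-iKO library, so its values carry the most counting error. Ezh1 was seventh and Phf19 the lowest in the water and the synchronized ethanol libraries too. Per length, Ezh2 exceeded Ezh1 in every library, by 1.48 to 6.48 times.

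**Figure D1:**
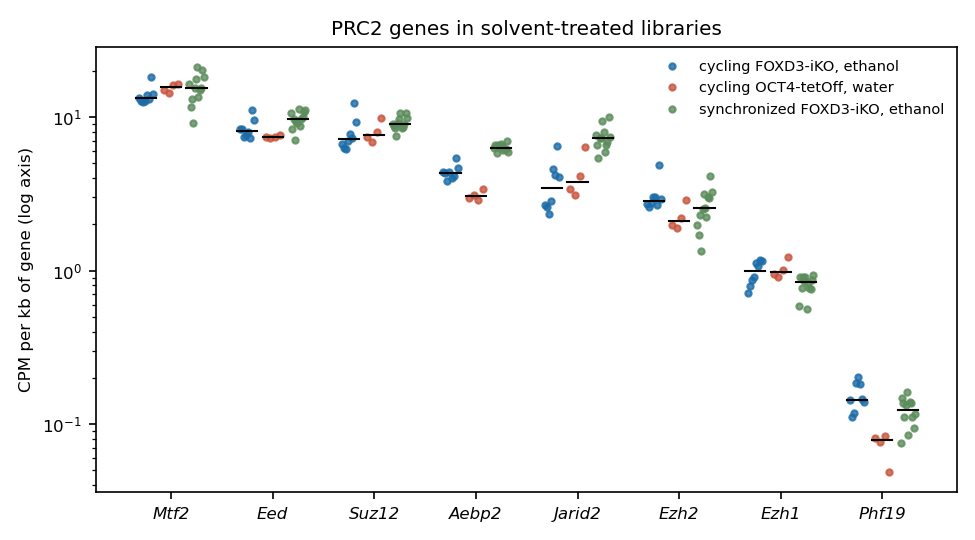
Level of each PRC2 gene in every solvent-treated library, in CPM per kb of gene on a log axis. Points are libraries (8 cycling ethanol, 4 water, 12 synchronized ethanol), black bars are medians, and Mtf2 leads while Ezh1 and Phf19 lie lowest in all 3 experiments.

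Loss of FOXD3 in cycling cells left most PRC2 genes without a detected change, and Aebp2 was the main exception. None of the 8 members was called (edgeR quasi-likelihood test, Benjamini-Hochberg adjusted p under 0.05 over all genes) at 8, 14 or 24 h, when 0.0107, 0.016 and 0.481% of the 18707 genes tested were called. DESeq2 also called 0 members at these times, and 0, 0 and 1 members had an unadjusted edgeR p under 0.05. Foxd3 itself was not called at 8 h (-1.33 ± 0.24, edgeR adjusted p = 0.39) or 14 h (-1.49 ± 0.25, adjusted p = 0.14). A fall of that size could thus go uncalled at those times, and the absence of calls does not show that the members were unchanged. At 32 h, 1 of 8 members was called, against 9.47% of genes (4.88% higher). The median log2 fold change of the members at 32 h was 0.04, beside -0.05 over all genes.

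Aebp2, a zinc-finger subunit that binds DNA and nucleosomes, had 245 and 239.8 CPM with ethanol and 239.6 and 239 CPM with 4HT at 8 h. At 14 h it had 215 and 247 CPM with ethanol against 238 and 305 CPM with 4HT. At 24 h it had 224 and 231 CPM with ethanol against 282 and 269 CPM with 4HT. At 32 h it had 303 and 260.5 CPM with ethanol against 418 and 408 CPM with 4HT. The arms were level at 8 h and overlapped at 14 h. Both 4HT libraries lay above both ethanol libraries at 24 and at 32 h, when 42.5 and 46.4% of genes had groups that did not overlap. The log2 fold change was 0.28 ± 0.12 (SE) at 24 h, not past the threshold (edgeR adjusted p = 0.54). At 32 h Aebp2 rose by 0.55 ± 0.12 (95% confidence interval 0.29 to 0.81, edgeR adjusted p = 0.011). The call was lost without either 4HT 32 h library (edgeR adjusted p = 0.084 and 0.07) and in a fit of those 4 libraries alone (0.62, adjusted p = 0.19). Total-count scaling gave 0.72, with the median of all genes at 0.12 and calls at 1562 higher and 239 lower in place of 913 and 858. The F test that the response differed between the 4 times did not pass for Aebp2 (edgeR adjusted p = 0.47) or any other member, against 0.454% of genes. DESeq2 called 0 members in it, and 1 had an unadjusted edgeR p under 0.05.

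Among the catalytic subunits, Ezh1 had 41.4 and 40.7 CPM with ethanol and 35.2 and 35.4 CPM with 4HT at 32 h. The 4HT libraries were both lower, and the log2 difference of -0.22 ± 0.08 did not pass (edgeR adjusted p = 0.11). With the trend of fold change with gene length removed, Ezh1 was called lower (-0.25, edgeR adjusted p = 0.035). Ezh2 had 320.1 and 189 CPM with ethanol and 239 and 261 CPM with 4HT, so that both 4HT libraries lay between the ethanol libraries (log2 difference -0.03 ± 0.20, edgeR adjusted p = 0.96).

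The 2 ethanol 32 h libraries differed in the same way for most members. Ethanol library 1 was above library 2 for Jarid2 (1249 against 779.5 CPM), Suz12 (508 against 381 CPM) and Mtf2 (797 against 612 CPM). The ribosomal RNA gene models took 14.3% of counts in library 1 and 28% in library 2, beside 13.9 and 12.5% in the 4HT libraries. Whether this share bears on the 32 h comparison was not tested. Jarid2, which helps PRC2 onto chromatin, had a log2 difference of 0.08 ± 0.21, and Mtf2 0.10 ± 0.13. For Suz12 it was 0.00 ± 0.15 and for Eed 0.08 ± 0.10, with edgeR adjusted p between 0.72 and 0.99 over these 4 genes. Phf19 had 2.94 and 2.81 CPM with ethanol against 2.12 and 2.13 CPM with 4HT, a log2 difference of -0.44 ± 0.23 that did not pass (edgeR adjusted p = 0.26).

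In ethanol cells the members' median log2 change between 24 and 32 h was 0.28, beside 0.02 over all genes. In that comparison 1 of 8 members was called, against 5.38% of genes (2.7% higher): Eed rose from 210.1 and 194 CPM to 296 and 252 CPM, by 0.44 ± 0.10 on the log2 scale (edgeR adjusted p = 0.025). Suz12 went from 318 and 300.5 CPM to 508 and 381 CPM, a difference of 0.52 ± 0.15 that did not pass (edgeR adjusted p = 0.064) but did with DESeq2 (0.53, adjusted p = 0.02). At an unadjusted p under 0.05 there were 4 members. The Eed call was lost without either 24 h ethanol library (edgeR adjusted p = 0.11 and 0.17) or without ethanol 32 h library 1 (0.075). Without ethanol 32 h library 2, 6 members were called. Totals without Gm26917 and Gm42418 moved the calls over all genes from 505 higher and 501 lower to 157 and 742, with their median at -0.12. Between 8 and 14 h, 0 members were called by edgeR and 0% of genes, with 1 member at an unadjusted p under 0.05 (Ezh1, 0.23 ± 0.08) and 0 members called by DESeq2.

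**Figure D2:**
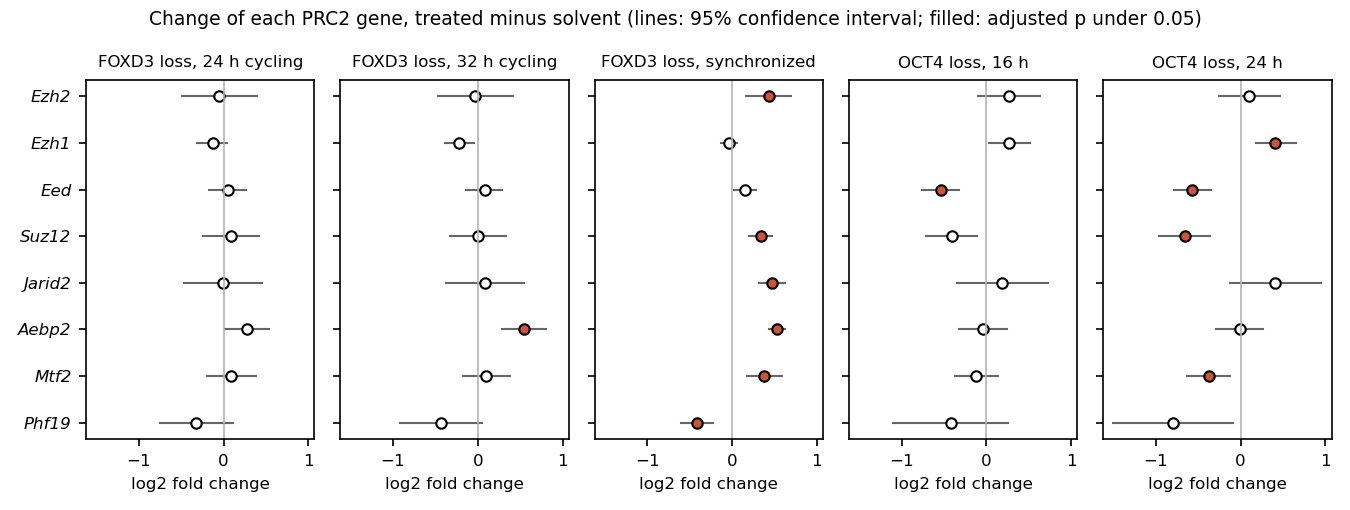
Log2 fold change of each PRC2 gene, treated minus solvent, in 5 comparisons. Points are edgeR estimates, lines their 95% confidence intervals, and filled points have an adjusted p under 0.05. Aebp2 is filled at 32 h and in synchronized cells after FOXD3 loss, whereas Eed, Suz12, Mtf2 and Ezh1 are filled at 24 h of OCT4 loss.

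In synchronized cells, where each arm has 12 libraries over 6 release times, 6 of 8 members differed between 4HT and ethanol: Aebp2, Jarid2, Ezh2, Mtf2 and Suz12 were higher and Phf19 was lower with 4HT. Calls were common in this comparison, at 37% of the 17739 genes tested (18.6% higher and 18.4% lower). The median log2 fold change was 0.36 over the members and -0.01 over all genes. These libraries are separate from those of the cycling cells. The sources used here do not say whether libraries of different release times came from the same treated and blocked culture. If they did, the 12 libraries of an arm are not independent. The p-values of the synchronized comparisons, which treat them as independent, could then be too small. Leaving out single libraries does not address this.

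Aebp2 ran from 325 to 391 CPM (median 354) in the ethanol libraries and from 465 to 615 CPM (median 499) in the 4HT libraries. Every 4HT library was thus above every ethanol library, a separation found for 0.682% of genes in this comparison. The log2 fold change was 0.53 ± 0.04 (edgeR adjusted p = 3.3e-08), and it stayed between 0.50 and 0.55 and called when each of the 24 libraries was left out in turn. Scaling to total counts gave 0.32 (edgeR adjusted p = 0.00015), and removing the trend of fold change with gene length gave 0.42 (adjusted p = 4.3e-06).

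Jarid2 ran from 1046 to 1937 CPM (median 1399) with ethanol and from 1671 to 2317 CPM (median 1940.3) with 4HT, overlapping ranges with the 4HT mean higher at all 6 times. It was higher by 0.47 ± 0.07 on the log2 scale (edgeR adjusted p = 5.5e-05). Jarid2 spans 192 kb, longer than 94.2% of tested genes, and with the length trend removed the difference was 0.23 (edgeR adjusted p = 0.019).

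Of the core subunits, Suz12 ran from 308 to 438 CPM with ethanol and from 422 to 644 CPM with 4HT (medians 372 and 463), a difference of 0.34 ± 0.07 (edgeR adjusted p = 0.00046). Eed, with medians of 257 and 278 CPM and ranges that overlapped widely, had a difference of 0.15 ± 0.06 that did not pass (edgeR adjusted p = 0.072). DESeq2 called Eed (0.16, adjusted p = 0.049), and under total-count scaling its sign turned (-0.06), while the median of all genes moved to -0.21, below Eed.

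Ezh2 ran from 87.5 to 269 CPM with ethanol and from 114 to 331 CPM with 4HT, a difference of 0.43 ± 0.13 (edgeR adjusted p = 0.012), while Ezh1, with medians of 29.7 and 27.8 CPM, had a difference of -0.04 ± 0.04 (adjusted p = 0.54). The 2 catalytic genes thus differed in whether they passed, a contrast that was not itself tested.

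The Polycomb-like genes went opposite ways. Mtf2 ran from 397 to 917 CPM with ethanol and from 717 to 1214 CPM with 4HT, a difference of 0.38 ± 0.10 (edgeR adjusted p = 0.0042), with the 4HT mean higher at 6 of 6 times. Phf19 ran from 1.51 to 3.27 CPM with ethanol and from 1.45 to 2.16 CPM with 4HT, a fall of -0.41 ± 0.09 (edgeR adjusted p = 0.0018), with the 4HT mean lower at 6 of 6 times. Each synchronized library held 13 to 53 counts of Phf19. The 4HT mean was also higher at 6 of 6 times for Aebp2 and Suz12 and at 5 of 6 for Ezh2 and Eed. For Ezh1 it was lower at 5 of 6. The share of all genes with such counts of times was not counted.

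The scale matters for these differences. Total-count scaling moved the median of all genes to -0.21, and 796 of 8209 called genes were then higher, against 3301 of 6566 with TMM factors. Under it 4 members were called. Aebp2 and Jarid2 (0.27) were higher, Phf19 (-0.61) and Ezh1 (-0.24, edgeR adjusted p = 0.0049) were lower, and Ezh2 (0.22, adjusted p = 0.14), Suz12 (0.13, adjusted p = 0.15) and Mtf2 (0.18, adjusted p = 0.14) did not pass. Relative to the median of all genes under that scaling, these 3 lay above it, and Ezh1 lay at about that median. Ethanol library 1 at 3 h and at 5 h stood apart, with 25.4 and 24.4% of counts in the ribosomal RNA gene models against 4.77 and 3.83% in library 2. Without both, 6 members were called, with Ezh2 at 0.34, Mtf2 at 0.32 and Aebp2 at 0.55. Summed primitive endoderm markers were 53.4 to 93.2 CPM with ethanol and 80 to 133 CPM with 4HT (6 genes, 2 of 4 tested called higher), and trophectoderm markers 16.2 to 30.1 and 30.5 to 49.6 CPM (6 genes, 1 of 4 tested called higher). The lowest library had 0 for Sox17, Sox7, Cdx2 and Hand1. Single genes weighed most in these sums: Dab2 ran from 26.5 to 103 CPM and Tfap2c from 7.51 to 38.5 CPM over the synchronized libraries. In cycling cells the 2 sums were 23.9 to 40 and 37.9 to 55.4 CPM with ethanol and 36.1 to 50.3 and 57.7 to 74.5 CPM with 4HT. Their part in the results was not tested.

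**Figure D3:**
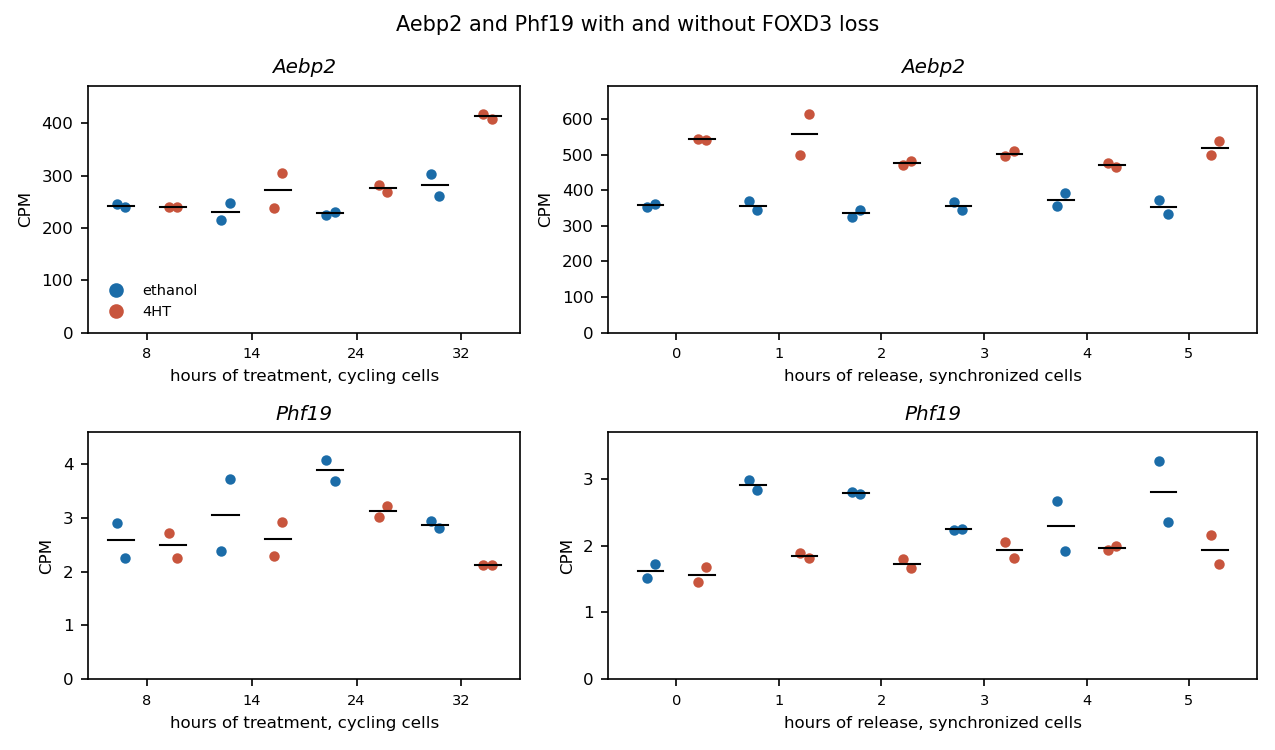
CPM of Aebp2 and Phf19 in every FOXD3-iKO library, by hours of treatment in cycling cells and hours of release in synchronized cells. Points are libraries (2 a group), bars are group means, ethanol is blue and 4HT is red. All 12 synchronized 4HT libraries lie above all 12 ethanol libraries for Aebp2.

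Over the release from thymidine, Ezh1 was the 1 member of 8 called by edgeR in ethanol cells, against 19.4% of genes. It had 20.9 and 19.9 CPM at 0 h, 32.1 and 29.3 CPM at 1 h and 32.1 and 33.2 CPM at 5 h. Both libraries at 0 h were below all later ethanol libraries, a separation whose share over all genes was not counted. Against 0 h its log2 differences were 0.59, 0.42, 0.53, 0.57 and 0.68 at 1 to 5 h (F test over the 6 times, edgeR adjusted p = 0.0021). The call was lost with total-count scaling (edgeR adjusted p = 0.2) and without ethanol 0 h library 2 (adjusted p = 0.056). DESeq2 also called Jarid2 (adjusted p = 0.022). The replicate block in edgeR also called Ezh2, Jarid2 and Mtf2 (adjusted p = 0.02, 0.047 and 0.011).

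In 4HT cells 0 members were called by edgeR, against 15.4% of genes. 1 member, Ezh2, had an unadjusted p under 0.05, and DESeq2 also called it alone (adjusted p = 0.045). Ezh2 had 114 and 153 CPM at 0 h and 261 and 331 CPM at 5 h with 4HT, with log2 differences from 0 h of 0.67, 0.83, 0.87, 0.94 and 1.15 (edgeR adjusted p = 0.13). It was called without either ethanol 3 h library (edgeR adjusted p = 0.018 for each). All later 4HT libraries were above both 0 h libraries, again a separation whose share over all genes was not counted. In ethanol cells it had 130.1 and 168 CPM at 0 h and 206 and 211 CPM at 5 h. The interaction of treatment and release time was not called for any member or gene (0 of 8 and 0%, 0 members at an unadjusted p under 0.05, and 0 members by DESeq2), so the 4HT effect was not shown to differ between release times.

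**Figure D4:**
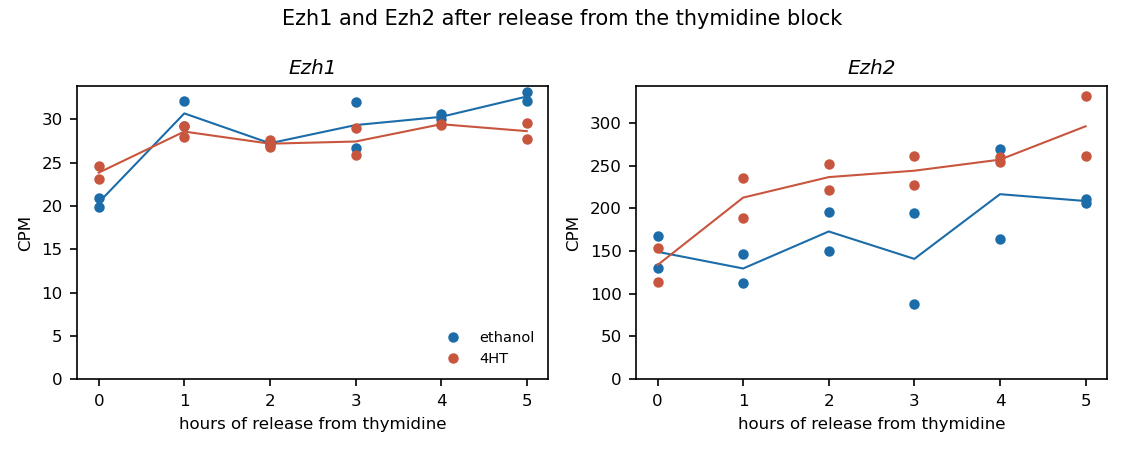
CPM of Ezh1 and Ezh2 by hours of release from the thymidine block, with ethanol in blue and 4HT in red. Points are libraries (2 a group) and lines join group means. Ezh1 in ethanol cells is lowest at 0 h, at 20.9 and 19.9 CPM.

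After loss of OCT4, nascent RNA of Eed was called lower at 16 and 24 h and that of Suz12 at 24 h. For neither gene was the response shown to differ between the 2 times. Neither catalytic gene was called lower. At 16 h, 1 of 8 members was called, Eed, against 16.9% of the 17713 genes tested (8.91% lower). At 24 h 4 of 8 were called, against 36.9% of genes: Eed, Suz12 and Mtf2 were lower (18.7% of genes) and Ezh1 was higher (18.1% of genes). The member share is thus near that of all genes. The median log2 fold change at 24 h was -0.19 over the members and -0.01 over all genes.

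Eed had 196 and 193 CPM with water and 130.5 and 137 CPM with DOX at 16 h, and 195 and 203 CPM against 130.2 and 138 CPM at 24 h. All 4 DOX libraries were below all 4 water libraries, although groups that did not overlap were common, at 68.3% of genes at 16 h and 64% at 24 h. The fall was -0.54 ± 0.10 at 16 h (edgeR adjusted p = 0.0048) and -0.57 ± 0.10 at 24 h (adjusted p = 0.0019). The 16 h call was lost without any 1 of its 4 libraries (edgeR adjusted p between 0.052 and 0.082), when the values stayed between -0.58 and -0.51, and with total-count scaling (-0.38, adjusted p = 0.064), which moved the median of all genes to 0.15 and the calls to 2392 higher and 1019 lower, from 1407 and 1579. Ezh1 was then the member called (0.42, edgeR adjusted p = 0.035). The 24 h call held without each of the 8 libraries.

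Suz12 had 304 and 281 CPM with water and 214 and 228 CPM with DOX at 16 h, a log2 difference of -0.41 ± 0.13 that did not pass (edgeR adjusted p = 0.068). At 16 h Suz12 was called lower in 5 of 8 alternative settings, for example with the length trend removed (-0.44, edgeR adjusted p = 0.00055). With total-count scaling it was not (-0.25, edgeR adjusted p = 0.29). It lay between 0.035 and 0.33 in adjusted p when each library was left out, passing without any 1 of the 4 libraries of 24 h. At 24 h it had 326 and 408 CPM against 218 and 248 CPM. All DOX libraries were again below all water libraries, and the fall at 24 h was -0.66 ± 0.13 (edgeR adjusted p = 0.0048). In a fit of the 4 libraries of 24 h alone it was as large but did not pass (-0.66, edgeR adjusted p = 0.057). The response of Suz12 at 24 h minus that at 16 h was -0.25 ± 0.19 and was not called (edgeR adjusted p = 0.67).

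Mtf2 had 706 and 718 CPM with water and 523 and 577 CPM with DOX at 24 h. The groups did not overlap, and the fall of -0.37 ± 0.11 passed narrowly (edgeR adjusted p = 0.029). Leaving out any 1 library except DOX 24 h library 2 lost the call (7 of 8 libraries, edgeR adjusted p between 0.07 and 0.11), as did total-count scaling (-0.31, adjusted p = 0.13). At its end, 2639 bases of Mtf2 overlap Tmed5 on the opposite strand (12922 counts against 249275 for Mtf2 in the cycling FOXD3-iKO libraries), and the sources used here do not say how such reads were counted. Longer opposite-strand overlaps are those of Suz12 with Gm26563 (12515 bases) and Ezh2 with Gm26625 (5039 bases). These 2 gene models had 151 and 21 counts in the same libraries. Whether such overlaps bear on the levels per kb was not tested.

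Ezh1 had 33.7 and 32.1 CPM with water and 40.9 and 38.4 CPM with DOX at 16 h, and 35.8 and 43.1 CPM against 54.2 and 50.7 CPM at 24 h. The DOX libraries were the higher at each time. The rise of 0.41 ± 0.11 at 24 h passed (edgeR adjusted p = 0.014) and the 16 h difference of 0.27 ± 0.11 did not (adjusted p = 0.13). The 24 h call was lost without water 24 h library 1 (0.28, edgeR adjusted p = 0.099) and in a fit of the 4 libraries alone (adjusted p = 0.072). Ezh2 had 144 and 188 CPM with water and 154 and 202 CPM with DOX at 24 h, groups that overlapped (0.10 ± 0.16, edgeR adjusted p = 0.65). Per length the ratio of Ezh2 to Ezh1 was 2.08 and 2.08 with water and 1.92 and 2.25 with DOX at 16 h, which overlap. At 24 h it was 2.18 and 2.36 with water and 1.54 and 2.16 with DOX. The ratio was not tested.

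The remaining accessory genes did not pass at 24 h. Jarid2 had 794 and 1228 CPM with water and 1039.9 and 1642 CPM with DOX, a wide spread within each group (0.41 ± 0.24, edgeR adjusted p = 0.21), and leaving out 1 library moved it between 0.04 (without DOX 24 h library 2, adjusted p = 0.91) and 0.76 (without water 24 h library 2, adjusted p = 0.052). It was called without DOX 24 h library 1 (0.72, edgeR adjusted p = 0.022) and was 0.11 with the length trend removed (adjusted p = 0.36). Aebp2 had 159.9 and 191 CPM with water and 159 and 188 CPM with DOX, which is level (-0.01 ± 0.12, 95% confidence interval -0.29 to 0.27). With the length trend removed, Aebp2 was called lower (-0.18, edgeR adjusted p = 0.037). Phf19 had 1.7 and 0.983 CPM with water and 0.789 and 0.775 CPM with DOX, lower in both DOX libraries but not past the threshold (-0.80 ± 0.32, edgeR adjusted p = 0.074). Without water 24 h library 2, Phf19 was called (-1.12, edgeR adjusted p = 0.022), and without water 24 h library 1 the difference was -0.33 (adjusted p = 0.57).

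Neither the response at 24 h against that at 16 h nor the change of water cells from 16 to 24 h was called for any member or gene by edgeR (0 of 8 and 0% in each). At an unadjusted p under 0.05 there were 0 and 4 members, and DESeq2 called 0 in each. The 8 pluripotent markers fell with DOX in 7 of 7 tested genes at 24 h, and 4 of 5 tested primitive endoderm markers rose. Primitive endoderm markers summed to 11.8 to 14.5 CPM with water and 27.7 to 59.9 CPM with DOX (6 genes, Sox7 at 0 in the lowest library). Trophectoderm markers summed to 42.9 to 59.9 CPM with water and 69.2 to 89.2 CPM with DOX, with 3 of 5 tested called higher at 16 h and 2 of 5 at 24 h. Tfap2c alone ran from 31 to 67.8 CPM over these libraries, and the next highest gene of that list, Eomes, reached 12.2 CPM. The part of these markers in the changes of PRC2 genes was not tested.

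**Figure D5:**
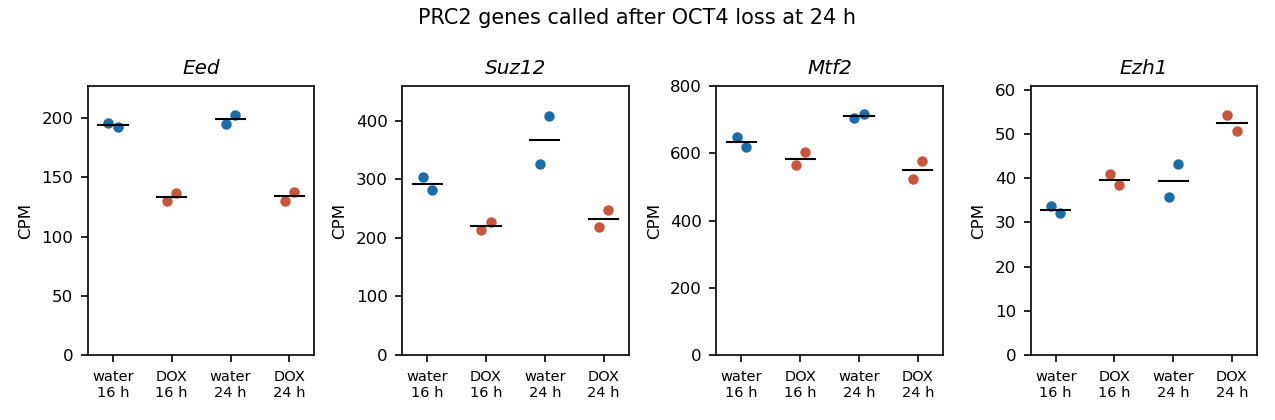
CPM of the 4 PRC2 genes called after 24 h of OCT4 loss, in every OCT4-tetOff library. Points are libraries (2 a group), bars are group means, water is blue and DOX is red. Eed and Suz12 are lower in all 4 DOX libraries than in all 4 water libraries.

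The 2 depletions were compared directly at 24 h in a joint fit of 8 libraries, taking the FOXD3 response minus the OCT4 response. The cell lines, agents and solvents differ, so a difference between factors and one between lines cannot be told apart. Foxd3 itself also fell with DOX (-3.12 ± 0.20 at 24 h), beside -1.46 ± 0.24 with 4HT. The comparison is thus not of loss of 1 factor alone against loss of the other alone. 3 of 8 members differed, against 16.5% of the 18437 genes tested (9.07% higher and 7.4% lower). Eed had a response of 0.05 ± 0.10 after FOXD3 loss and -0.57 ± 0.10 after OCT4 loss in the separate fits, and the difference was 0.62 ± 0.16 (edgeR adjusted p = 0.027). For Suz12 the responses were 0.09 ± 0.15 and -0.66 ± 0.13, and the difference was 0.76 ± 0.20 (edgeR adjusted p = 0.029). For Ezh1 they were -0.13 ± 0.08 and 0.41 ± 0.11, and the difference was -0.54 ± 0.16 (edgeR adjusted p = 0.045). Each of these calls was lost without some 1 library: Ezh1 without 6 of the 8 (edgeR adjusted p up to 0.17), and Eed and Suz12 without either ethanol, either 4HT or water library 2 (up to 0.14 and 0.13). Totals without Gm26917 and Gm42418, with the median of all genes at 0.13, also lost Ezh1 (-0.44, edgeR adjusted p = 0.14) and gained Mtf2 (0.58, adjusted p = 0.022), which otherwise did not pass (0.47 ± 0.18, adjusted p = 0.11). Aebp2 had responses of 0.28 ± 0.12 and -0.01 ± 0.12, and the difference of 0.30 ± 0.19 did not pass (edgeR adjusted p = 0.32). It was called with the length trend removed (0.45, edgeR adjusted p = 0.005) and with the replicate block (0.30, adjusted p = 0.0028), and ran from 0.15 to 0.43, not called, when each library was left out.

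The wider Polycomb system was followed in further gene lists, chosen like the members with earlier results of these data known. Of 6 tested other PRC2 partners, 1 rose and 1 fell at 24 h of OCT4 loss, when 36.9% of all genes were called. Rbbp7, a histone-binding subunit, rose by 0.74 ± 0.10, and Epop, a partner of the Polycomb-like form, fell by -1.09 ± 0.16 (edgeR adjusted p = 0.00045 and 0.00073). At 32 h of FOXD3 loss, when 9.47% of all genes were called, Epop also fell (-0.71 ± 0.19) and Phf1, another Polycomb-like gene, rose (0.72 ± 0.15, edgeR adjusted p = 0.03 and 0.0094). In synchronized cells, where 37% of all genes were called, 3 of the 6 were higher with 4HT and 0 lower.

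Of 24 tested genes of PRC1, the complex that ubiquitinates histone H2A, 5 rose and 5 fell at 24 h of OCT4 loss, a share near the 36.9% of all genes. Phc1, a polyhomeotic subunit, fell from 96.7 ± 3.45 to 27.8 ± 2.26 CPM (-1.80 ± 0.10, edgeR adjusted p = 2.5e-06). At 32 h of FOXD3 loss, when 9.47% of all genes were called, 1 PRC1 gene rose and 2 fell. Phc1 was among the lower (-0.41 ± 0.08, edgeR adjusted p = 0.0068). In synchronized cells 7 were higher and 2 lower with 4HT, again near the 37% of all genes, and Pcgf5 was among the higher (0.60 ± 0.11, edgeR adjusted p = 2e-04). Of 6 tested erasers of these marks, 1 rose and 2 fell at 24 h of OCT4 loss, when 36.9% of all genes were called. In synchronized cells, with 37% of all genes called, 2 erasers, Asxl1 and Asxl2, were higher with 4HT.

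Of 26 tested developmental genes known as Polycomb targets, 8 rose and 3 fell at 24 h of OCT4 loss (median 0.43, beside -0.01 over all genes), a share called near the 36.9% of all genes, of which 18.1% were higher and 18.7% lower. Gata6, a primitive endoderm factor, rose from 1.21 ± 0.128 to 20.9 ± 0.302 CPM (4.10 ± 0.16, edgeR adjusted p = 6e-07), and Bmp4 fell by -1.84 ± 0.16 (adjusted p = 3.6e-05). At 32 h of FOXD3 loss 2 of 29 rose and 1 fell, a share near the 9.47% of all genes called (4.88% higher). Gata6 rose by 1.08 ± 0.14 and Pax7 by 1.57 ± 0.37, and Hoxd8 fell by -1.13 ± 0.19 (edgeR adjusted p = 0.00038, 0.018 and 0.0024). In synchronized cells 6 of 23 were higher and 3 lower with 4HT, against 18.6% and 18.4% of all genes. At 8, 14 and 24 h of FOXD3 loss 0 genes of these lists were called.

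Across the 24 group means, centred within each experiment, the members did not all vary together. Eed, Suz12 and Mtf2 had the highest correlations of log2 CPM: Eed and Suz12 had a Pearson r of 0.84 and a Spearman rho of 0.83, Suz12 and Mtf2 0.80 and 0.87, and Eed and Mtf2 0.77 and 0.86. Aebp2 and Phf19 had the lowest (-0.58 and -0.58), and Ezh1 and Ezh2 had 0.43 and 0.42. The genes most like Ezh2 among 10884 were Ncoa6, Kat6a and Bdp1 (r = 0.98, 0.97 and 0.97), those most like Jarid2 were Rere, Ube2k and Smg6 (0.98, 0.97 and 0.97), and those most like Ezh1 were Stard7, Dlg3 and Lca5 (0.86, 0.85 and 0.85). The points share libraries, depth and scaling, and these values are descriptions only.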

How the data were processed

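The authors aligned reads to mm10 with STAR and counted them per gene with featureCounts, per the submitters' processing notes. Versions, strand setting and how reads matching several genes were treated: not given in the sources used here. The deposited values are raw counts, and each gene's length equals its full span, introns included. Symbols were mapped from gene IDs without version (54723 of 54752 matched).

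All genes of a table entered the quasi-likelihood test of edgeR 4.0.16 (R 4.3.3), with TMM factors and filterByExpr at a minimum count of 10. P-values were adjusted over all genes tested. All 8 members passed the filter in every table. CPM values are TMM-scaled. Confidence intervals are 95%. The additive synchronized model took release time as a factor and treated the libraries as independent. Scripts were tested on simulated data. No replicate pair was identical, and no library was left out.

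The members and lists were chosen with earlier results of these data known. All members are named. From further lists, at most the 2 called genes with the smallest p per direction were eligible to be named, and for likeness the 3 genes with the highest r, leaving out genes whose average log2 CPM was under 1. Alternatives were DESeq2 1.42.0, RLE factors, total counts with and without Gm26917 and Gm42418, no filter, the length trend removed (lowess), a replicate block, only the compared groups, and leaving out each library.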

Additional observations from a re-analysis of the deposited data

Results flagged for a closer look

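The responses to FOXD3 loss and to OCT4 loss at 24 h differed for 3 members by the test of the difference itself, on the log2 scale (edgeR quasi-likelihood test, FOXD3 response minus OCT4 response). Eed had a difference of 0.62 and Suz12 of 0.76, both from a fall in all DOX libraries and no detected change with 4HT. Ezh1 had a difference of -0.54, with a called rise of 0.41 ± 0.11 with DOX. With 4HT no change of Ezh1 was detected (-0.13 ± 0.08, edgeR adjusted p = 0.75). At 24 h of OCT4 loss, 64% of all genes had groups that did not overlap. With 2 libraries in each of 4 groups and different lines and agents, the factor and the line cannot be told apart. Foxd3 RNA also fell with DOX, so the OCT4 response is not that of OCT4 loss alone.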

How the results depend on the processing

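Over all alternatives, the synchronized count of members called stayed between 4 (total counts) and 7, and no member was called at 8 or 14 h of FOXD3 loss. With the length trend removed, members called were 1 at 24 h and 2 at 32 h of FOXD3 loss and 1 for the response between times. They were 3 and 6 at 16 and 24 h of OCT4 loss, 5 for FOXD3 minus OCT4 loss and 4 for ethanol 24 to 32 h. Calls over all genes rose too, from 90 to 359 and 1771 to 2608 at 24 and 32 h of FOXD3 loss. At 16 and 24 h of OCT4 loss they rose from 2986 to 5314 and 6531 to 8237. They rose from 3038 to 5086 for FOXD3 minus OCT4 loss and from 1006 to 2862 for ethanol 24 to 32 h. Fits of only the compared groups gave 0 members at 32 h of FOXD3 loss, with 194 calls over all genes. They gave 5 and 1 members at 16 and 24 h of OCT4 loss (6506 and 4215 genes) and 0 for ethanol 24 to 32 h (0 genes). Without the low-count filter, members called were 2 and 6 at 16 and 24 h of OCT4 loss, with 3744 and 7462 calls over all genes. They were 3 for ethanol 24 to 32 h (1620 genes) and 2 for water (2275 genes, beside 0 with the filter). For release in ethanol and 4HT cells they were 4 and 2, and for the interaction 1. DESeq2 gave 2 members for ethanol 24 to 32 h (1392 genes) and 2 and 1 for release in ethanol and 4HT cells. Total counts gave 2 members for ethanol 24 to 32 h (711 genes), 0 for release in ethanol cells and 4 for water (3017 genes). Leaving Gm26917 and Gm42418 out of the totals gave 2 members at 16 h of OCT4 loss (2632 genes). The cause was not tested in any of these.

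Signs turned for Aebp2 at 24 h of OCT4 loss (0.04 with total counts, 0.12 without DOX library 1 or water library 2, lowest -0.14 without DOX library 2), for Eed in synchronized cells (-0.06 with total counts, -0.01 with those outside both gene models) and for Jarid2 from ethanol 24 to 32 h (-0.12 without 32 h library 1, 0.56 without library 2). Of 57 pairs of member and comparison that were never called, 35 changed sign under some setting, with values of at most 0.37. Leaving out each library gave 0 to 1 members at 32 h of FOXD3 loss, 0 to 3 for FOXD3 minus OCT4 loss, 0 to 2 and 2 to 4 at 16 and 24 h of OCT4 loss, 0 to 6 for ethanol 24 to 32 h, 0 to 1 for water, 0 to 4 and 0 to 1 for release in ethanol and 4HT cells, and 6 to 7 in synchronized cells. Release in ethanol cells fell to 0 without 0 h library 2, and rose to 4, 3 and 2 without 3 h library 2, 4 h library 1 and 5 h library 2.

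The labels do not say that equal replicate numbers pair libraries, and the correlation of same-numbered deviations ran from -0.11 to 0.42. A replicate block gave 2 members at 16 h of OCT4 loss, 6 for FOXD3 minus OCT4 loss, 4 and 1 for release in ethanol and 4HT cells, and 7 in synchronized cells, and moved no other count of members. Calls over all genes rose with the block as well, from 2986 to 3464 at 16 h of OCT4 loss. They rose from 3038 to 8019 for FOXD3 minus OCT4 loss and from 6566 to 7178 in synchronized cells. Floors of 3 counts were 0.0987 to 0.377 CPM and cover counting error only. The smallest counts were those of Phf19.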
